A study of Mus musculus with 48 samples.

Results

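The medial prefrontal cortex (mPFC) of OVX+CUMS mice was compared with that of control mice. All mice were female C57BL/6J, 17 weeks old at sampling, and killed under pentobarbital anesthesia. Control mice had a sham operation and were not stressed. OVX+CUMS mice had both ovaries removed (ovariectomy, OVX) and were then exposed to chronic ultra-mild stress (CUMS), a weekly schedule of tilted, small, soiled or switched cages, acetic acid odor, restricted food access, lights on overnight and a reversed light cycle at weekends. The mice were selected by their titles, mPFC_OVX+stress and mPFC_control, each with 6 numbered mice, which gave 12 of the 48 arrays of the series, with 1 one-colour Agilent array per mouse. The combined treatment was compared as a whole, so the contrast does not separate surgery from stress. The tissue was a dissected piece of cortex, in which fewer cells of a type and less RNA per cell cannot be told apart.

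The mPFC is the part of the frontal cortex that is linked to mood, working memory and the control of stress responses. Its principal cells are glutamatergic pyramidal neurons, held in check by GABAergic interneurons. Removal of the ovaries takes away their estradiol and progesterone, which act through the receptors encoded by Esr1, Esr2 and Pgr. Stress raises corticosterone, which acts in the cortex through the receptors encoded by Nr3c1 and Nr3c2 and induces genes such as Fkbp5 and Per1. Markers of the cortex were present: all 12 genes listed for cortical excitatory neurons and all 16 for GABAergic interneurons were well above background on every array compared. Ttr, which defines the choroid plexus, was well above background on 4 control and 5 OVX+CUMS arrays only, and was not tested.

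The groups shared no slide. All 6 control arrays were on slide 1 and all 6 OVX+CUMS arrays on slide 3. The sham-operated stressed mice (CUMS mice) were spread over slide 1 (2 arrays) and slide 2 (4 arrays), and the unstressed ovariectomized mice (OVX mice) over slide 2 (4 arrays) and slide 3 (2 arrays). Slide and group therefore cannot be told apart in the plain comparison. The other mPFC arrays gave a measure of the slides that used no control or OVX+CUMS array: the difference between CUMS arrays on slides 2 and 1, plus the difference between OVX arrays on slides 3 and 2. This sum is called the slide step. It compares different mice, so it also holds differences between them. With slide as a block over all 24 mPFC arrays, the estimate equals the plain difference less the slide step, and it is called the slide-adjusted difference. It rests on pairs of array groups as small as 2, and its median standard error over probes was 0.18, against 0.08 for the plain difference. Before scaling, the 75th percentile of the signal was 651 ± 32.5 (SD, n = 6) in control mice and 604 ± 24.6 in OVX+CUMS mice, and the median number of probes well above background was 36139 and 33760.

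A total of 29437 probes were well above background on all 12 arrays. Signals are given as log2 of the processed signal less the 75th percentile of the array, and differences as OVX+CUMS minus control on this log2 scale, with standard errors from limma. Of these probes, 8886 passed an adjusted p threshold of 0.05, which is 30.2% of all tested. In OVX+CUMS mice 5097 probes (17.3%) were higher and 3789 (12.9%) were lower. The split between directions depended on the scaling: 57.4% of the called probes were higher, against 44.4% when the percentile was taken over detected probes only and 0.743% when arrays were shifted to their spike-in transcripts. The spike-in shift lowered every difference by 0.30, from a median over all probes of 0.06 to -0.24, so that each direction given here is relative to the other probes. The differences were mostly small: the median size over called probes was 0.31, 247 called probes were lower by more than 1 and 11 were higher by more than 1.

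The slide step ran alongside these differences. Across probes, which are not independent replicates, the plain difference and the slide step had a correlation of 0.66, and 89.9% of the called probes had a slide step of the same sign. The share with the same sign over all probes tested was not computed. The part between slides 1 and 2, measured within CUMS mice, had 5079 probes past the threshold (17.3%), and the part between slides 2 and 3, measured within OVX mice, had 687 (2.33%). With slide as a block, no probe (0%) passed the threshold after adjustment, and 1730 (5.88%) had an unadjusted p under 0.05. Of the 8886 called probes, 829 were among these 1730, 708 of them in the same direction as in the plain comparison.

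**Figure D1:**
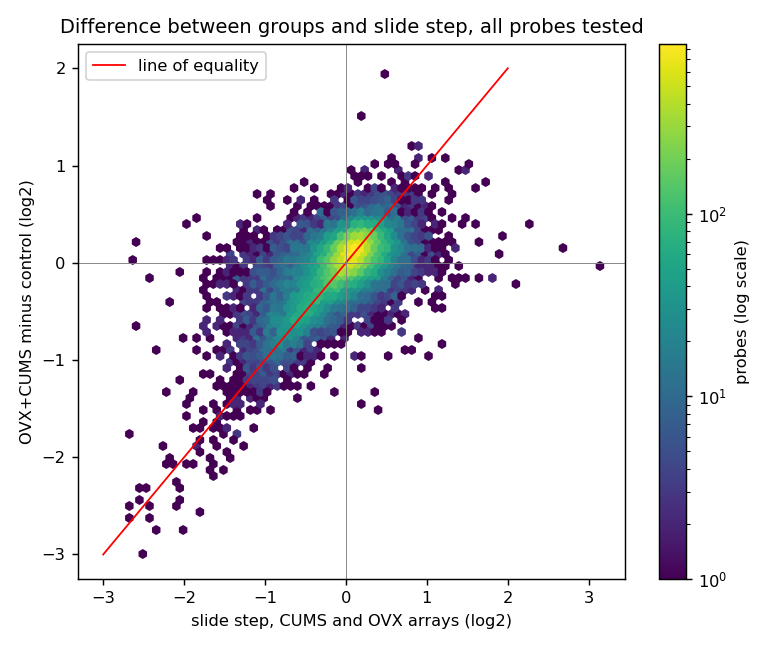
Plain difference between OVX+CUMS and control mice (vertical axis, log2) against the slide step measured in CUMS and OVX arrays (horizontal axis, log2) for the 29437 probes tested. Each hexagon is shaded by its number of probes on a log scale. The largest falls lie close to the line of equality, and the correlation across probes was 0.66.

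By the brightest probe of each gene, 21308 genes were tested. Of these, 3774 (17.7%) were higher, 2978 (14%) were lower, and 3902 (18.3%) had values that did not overlap between the groups. Counts of called genes in the lists below are to be read beside these shares, 31.7% in either direction.

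The largest fall was that of Lingo1, which encodes a membrane protein that restrains myelination and axon growth. Its signal in control mice had a lowest value of 1.47, a median of 1.69 and a highest of 1.92, and in OVX+CUMS mice the values were -1.28, -1.05 and -0.86. The groups were far apart, with a difference of -2.75 ± 0.10 (SE), a 6.74-fold lower signal, and an adjusted p of 2.29e-09. Yet the CUMS mice were divided by slide: both arrays on slide 1 (1.72 and 1.59) lay with the control mice, and the 4 arrays on slide 2 (-0.71, -0.96, -1.03 and -1.09) lay with the OVX+CUMS mice. The slide step was -2.39 and the slide-adjusted difference -0.37 ± 0.23. Lingo1 was read by 1 tested probe.

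The other large falls had the same arrangement. Slco1a5, an organic anion transporter, ranged from -1.75 to -1.41 in control and from -3.91 to -3.51 in OVX+CUMS mice, a difference of -2.11 ± 0.09 beside a slide step of -1.72. Adra2b, the alpha-2B adrenergic receptor, differed by -1.63 ± 0.09, the slide step was -1.75, and the slide-adjusted difference was 0.12 ± 0.17, so the direction turned. Further genes among the 10 largest falls were Slc51b, Rap1a, Spry4, Krtap10-10, Cd79a and Colca2, with differences from -1.41 to -1.83 and slide steps from -1.27 to -1.47. The probe named for Cd79a lies on chromosome 12 by the coordinates of the array's annotation, while the gene table places Cd79a on chromosome 7. Over the 247 probes that were lower by more than 1, the median slide step was -1.12, and 240 had a slide step under -0.5.

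Rises were smaller, and most of those at the top came from dim probes. Pcsk4, a proprotein convertase known from germ cells, had a mean processed signal of 621.5. Its normalized signal ran from -0.98 to -0.29 in control and from -0.07 to 1.12 in OVX+CUMS mice, without overlap, and the difference was 1.00 ± 0.19 with an adjusted p of 0.00199. Its slide step was 0.89, and the slide-adjusted difference was 0.11 ± 0.38. Arl9, a small GTPase, differed by 0.90 ± 0.15 with a slide step of 1.06. Hbb-bh1, an embryonic beta-type globin, differed by 1.02 ± 0.16 at a mean processed signal of 41.9. The olfactory receptor genes Olfr209, Olfr391, Olfr103, Olfr1339 and Olfr538 had differences from 0.79 to 1.07 at mean processed signals from 39.9 to 77. Otos and Ugt3a2 made up the rest of the 10 largest rises, with differences of 0.88 and 0.81. The slide-adjusted difference of Olfr391 was 0.72 ± 0.52; for the other 9 genes it lay between -0.51 and 0.42.

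**Figure D2:**
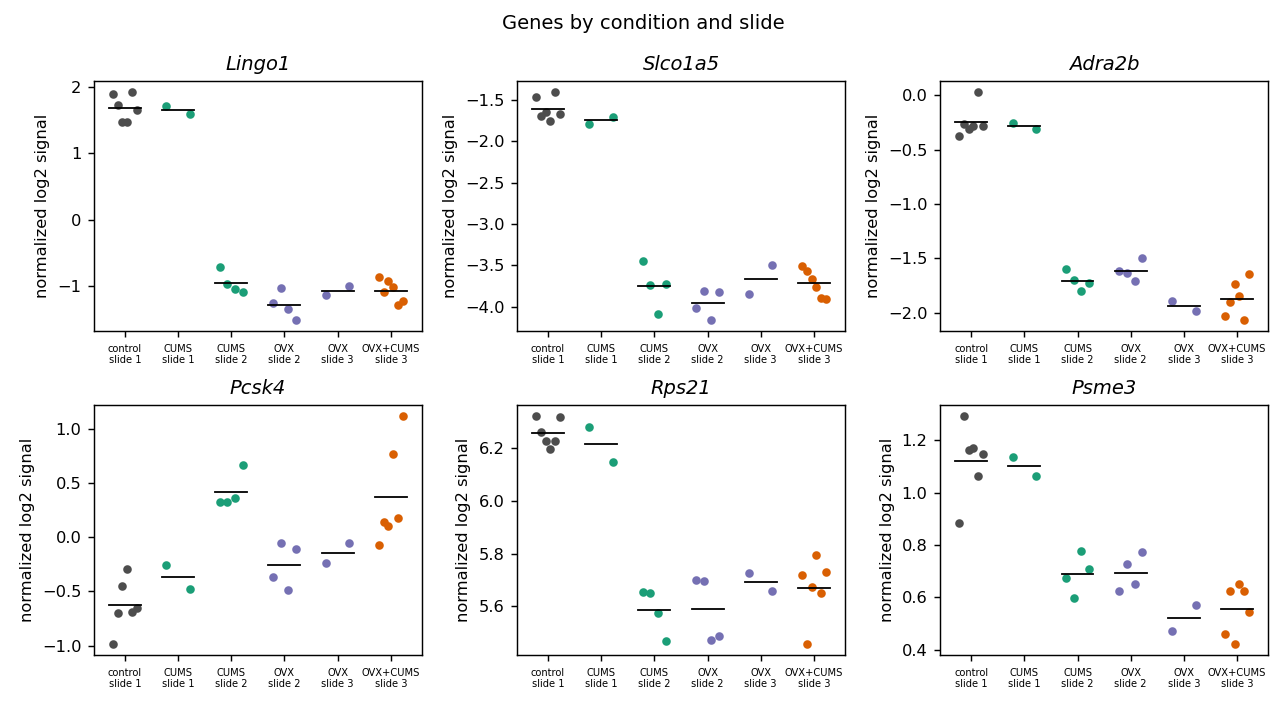
Normalized log2 signal (vertical axis) of 6 genes on each of the 24 mPFC arrays, arranged by condition and slide; points are single mice and bars are means. Lingo1, Slco1a5, Adra2b, Rps21 and Psme3 were high on slide 1 and low on slides 2 and 3, with the CUMS mice divided between the levels, and Pcsk4 was lowest on slide 1.

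Probes are single strands of 60 bases, and the share of probes called varied with their content of G and C bases. The ends of a few probes are shown as examples of low and high content: the last 30 bases as the array files write them, with G and C in capitals, first for 3 genes that were lower and then for 4 that were higher.
Lingo1: atGaaaaCttGaaataataaaaaGaaaaaa
Rps21: ttaCaaataaaaGttttaaGtaCttGtGaC
Slco1a5: GtatCaaaaCtatGaatatttCttttatGG
Stx1a: GttGtGGCCaGaGttGCatGttGGGGaCaG
Grin1: GCCaCaataGGCttCCtCaGaCGCtGGCtt
Mbd3: CtatGCCCaCCttatGtCCCtaaGGCtatt
Rps15: CCatCaCCttCaaaCCtGtGaaGCaaGGCC
By the mm9 coordinates in the array files, the Lingo1 probe lies at chr9:56466922-56466981. Over the whole probe, the share of G and C was 18.3% for Lingo1, 35% for Slco1a5 and 30% for Rps21, and 53.3% for Stx1a, 55% for Grin1, 50% for Mbd3 and 55% for Rps15. These examples were chosen for their base composition after their values were seen, and single genes did not divide this way: Kdr, C3 and Tet3 were lower with 55%, 55% and 53.3%, and Tef, Per1 and Per2 were higher with 35%, 36.7% and 38.3%. The median was 41.7% for called probes lower by more than 1 and 43.3% for all probes.

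Among the 435 probes with at most 30% G and C, 43.7% were lower in OVX+CUMS mice and 1.84% were higher, against 12.9% and 17.3% of all probes. The share that was higher rose from 5.62% of probes at 30 to 35% to 32.2% of probes at 50 to 55%. Above 60% G and C (386 probes), 46.4% were lower and 11.4% were higher. The same pattern was measured within CUMS mice between slides 2 and 1, where the median difference was -0.12 up to 30%, 0.08 at 50 to 55% and -0.32 above 60%. Between slides 3 and 2, within OVX mice, the medians in these classes were 0.03, -0.02 and 0.04.

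**Figure D3:**
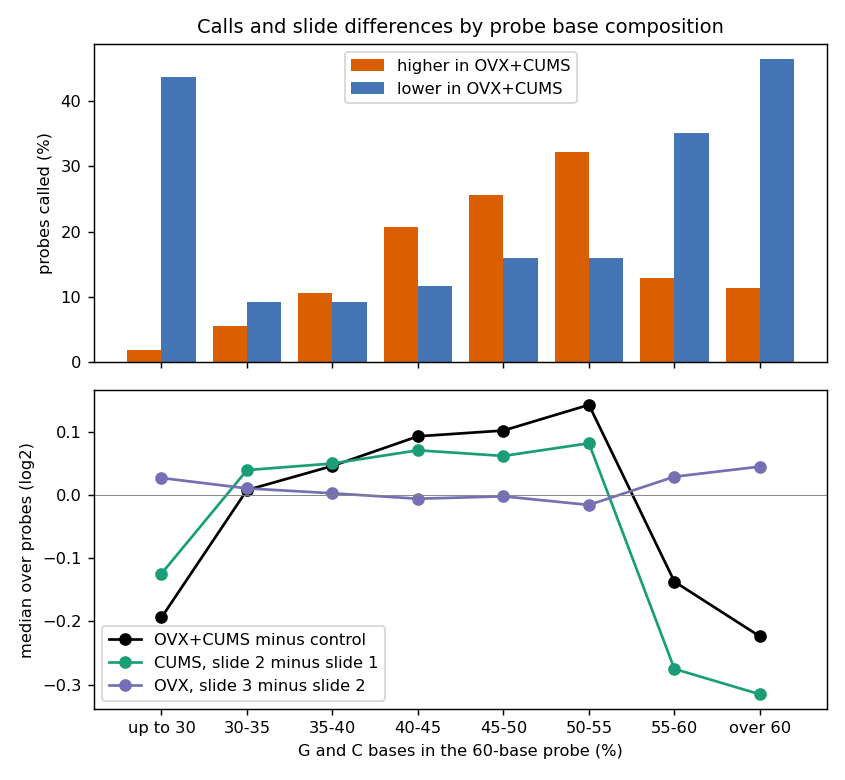
Upper panel: percent of probes called higher or lower in OVX+CUMS mice (vertical axis) by the percent of G and C bases in the probe (horizontal axis). Lower panel: median log2 difference over the same probes for OVX+CUMS minus control, for CUMS mice between slides 2 and 1, and for OVX mice between slides 3 and 2. The comparison of the groups and the CUMS slide difference have the same shape, with falls at both ends.

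Of 32 tested genes for synaptic vesicles and release, 11 were higher in OVX+CUMS mice, none was lower and 21 were not called; the median difference was 0.15, the median slide step -0.01 and the median slide-adjusted difference 0.16. The share higher, which was also the share called, was 34.4% of the list, beside 17.7% higher and 31.7% called of all genes. The median of the list lay 0.09 above that of all genes, or 0.04 above it with quantile normalization. The counts were 7 higher and 1 lower with quantile normalization, and 7 higher with the percentile over detected probes. Stx1a, the plasma membrane SNARE syntaxin 1A, ran from 3.90 to 4.20 in control (median 4.05) and from 4.33 to 4.52 in OVX+CUMS mice (median 4.46). These ranges did not overlap, and the difference was 0.40 ± 0.06 with an adjusted p of 0.000409. Its slide step was -0.08 and its slide-adjusted difference 0.47 ± 0.12. Napb, an adaptor in SNARE disassembly, differed by 0.36 ± 0.06 and was higher by both probes, but its slide step was 0.26. Syn3, a synapsin, differed by 0.40 ± 0.07 by the brightest of its probes with a slide step of 0.14.

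Slc17a7, the vesicular glutamate transporter of cortical pyramidal neurons, had control values with a lowest of 2.89, a median of 3.09 and a highest of 3.18, and OVX+CUMS values of 3.33, 3.43 and 3.53. Every OVX+CUMS mouse was above every control mouse, and the difference was 0.36 ± 0.06 (1.28-fold, adjusted p = 0.000482). The slide step was -0.03. Within slides, the mean of CUMS mice exceeded that of control mice by 0.13 on slide 1. On slide 3 the mean of OVX+CUMS mice exceeded that of OVX mice by 0.19. Each of these 2 values has a group of 2 arrays and was not tested. The CUMS values on slide 1 were 3.054 and 3.335, within and above the control range, and the OVX values on slide 3 were 3.156 and 3.313, below all OVX+CUMS values. Camk2a, the alpha subunit of the synaptic kinase CaMKII, differed by 0.32 ± 0.10 with overlapping groups, a slide step of -0.02 and both probes higher. The call for Camk2a was lost without any 1 of control mice 3, 4, 5 or 6 or OVX+CUMS mice 1, 3, 4 or 6, where the difference was 0.28 to 0.32. Among the 12 excitatory neuron genes, these 2 were higher (16.7%, beside 17.7% higher and 31.7% called of all genes) and none was lower. The median difference of the 12 was 0.12.

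Glutamate receptor and transporter genes were divided, with 3 higher and 3 lower of 28 (21.4% called, beside 31.7% of all genes). Their median difference was 0.04, beside 0.06 for all genes. Grin1, the obligatory subunit of NMDA receptors, lay between 2.62 and 2.79 in control and between 2.93 and 3.15 in OVX+CUMS mice. The groups did not overlap, and the difference was 0.35 ± 0.05 with an adjusted p of 0.000281. Its slide step was -0.14, and the slide-adjusted difference was 0.48 ± 0.11; 1 of its 2 tested probes was called. Grik5, a kainate receptor subunit, differed by 0.26 ± 0.06 with a slide step of -0.11. Slc17a8, the vesicular transporter of a subset of interneurons and serotonergic axons, was lower by 0.53 ± 0.09 with a slide step of -0.41, and the kainate subunit gene Grik1 differed by -0.34 ± 0.06 with a slide step of -0.30. Slc17a6, the vesicular transporter most abundant in thalamus, differed by -0.50 ± 0.13 with a slide step of -0.39. Within slides, its differences were -0.36 for CUMS minus control (slide 1), 0.66 for OVX minus CUMS (slide 2) and -0.40 for OVX+CUMS minus OVX (slide 3). These within-slide values were not tested singly. The list of thalamus and habenula, which holds Slc17a6, had 1 gene higher and 2 lower of 8 (37.5% called, beside 31.7% of all genes). The summed processed signal of that list ran from 5649 to 7779 in control and from 5271 to 6531 in OVX+CUMS mice. The part of dissection in these values was not tested.

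The list of GABA-A receptor subunits had 4 of 16 genes higher (25%, beside 17.7% higher and 31.7% called of all genes) and none lower. Among these 4 was Gabarapl1 (0.14 ± 0.04), which does not encode a receptor subunit. The median difference of the list was 0.04, below the 0.06 of all genes. With quantile normalization 3 were higher and 2 lower, and with the percentile over detected probes 2 and 2. Gabrb2, a widespread beta subunit, differed by 0.21 ± 0.05, and its slide step was 0.23. Of 16 interneuron genes, 1 was higher (6.25%, beside 17.7% higher and 31.7% called of all genes) and none was lower. Of 15 cortical layer genes, 3 were higher (20%, beside 17.7% higher and 31.7% called of all genes) and none was lower. Cux2 and Rorb mark upper layers and layer 4 respectively. Cux2 differed by 0.33 ± 0.10 with overlapping groups, and was not called without control mouse 2, 3 or 6 (0.28 to 0.31). Within slides, its differences were 0.20 for CUMS minus control (slide 1), -0.41 for OVX minus CUMS (slide 2) and 0.33 for OVX+CUMS minus OVX (slide 3), not tested singly. Rorb differed by 0.47 ± 0.10 with a slide step of 0.48. Cckbr, a cholecystokinin receptor, and Oprl1, the nociceptin receptor, were the called members of the neuropeptide list (2 of 27, 7.41%, beside 31.7% of all genes). Their differences were 0.31 ± 0.06 and 0.34 ± 0.10, with slide steps of 0.20 and 0.55.

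Clock genes were higher as far as they were called: 8 of 24 were higher and none was lower. The share was 33.3%, beside 17.7% higher and 31.7% called of all genes. The median difference was 0.13, as was the median slide step, and the median of the list lay 0.07 above that of all genes, or 0.04 above it with quantile normalization. Per2, a transcriptional repressor of the clock loop, ran from -1.38 to -0.77 in control and from -0.68 to -0.20 in OVX+CUMS mice, without overlap. Its difference was 0.59 ± 0.12 (adjusted p = 0.00287), its slide step 0.15 and its slide-adjusted difference 0.45 ± 0.26. Per1, a clock gene also induced by corticosterone, ran from 3.86 to 4.54 in control and from 4.39 to 4.86 in OVX+CUMS mice. These overlapped, and the difference was 0.40 ± 0.12 with a slide step of -0.02; it was not called without control mouse 2 (0.34), control mouse 6 (0.35) or OVX+CUMS mouse 4 (0.35). Within slides, Per1 was 0.42 and Per2 0.44 higher in CUMS than in control mice on slide 1, and 0.25 and 0.52 higher in OVX+CUMS than in OVX mice on slide 3. Between OVX and CUMS mice on slide 2 the differences were -0.25 and -0.50. Each of these within-slide values has a group of 2 or 4 arrays and was not tested singly. Tef, a clock output factor, differed by 0.33 ± 0.06 with a slide step of 0.18. The sampling hour of each mouse was not given in the labels. The paper gives only a window of daytime hours for blood collection, after which the brain was taken.

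Clock activators bind the E-box CACGTG, a palindrome that reads the same on both strands. The 250 bases upstream of the start were searched in the RefSeq promoter table (GRCm38.p6), which held 6 of the 8 called clock genes in 9 windows. The E-box was in 3 of these 9 windows, those of Per1 and Tef, and in 6.02% of all 32851 windows. The cAMP response element TGACGTCA was in none of the 9 and in 1.55% of all. Clock genes that were not called were not counted, so these shares do not set the called members apart from other clock genes. The 3 windows are shown because they hold the E-box, in capitals; each is 120 bases of the plus strand.
Per1, chr11:69098743-69098862: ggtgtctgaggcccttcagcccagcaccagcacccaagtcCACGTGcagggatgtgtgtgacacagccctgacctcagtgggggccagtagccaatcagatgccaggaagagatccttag
Tef (first start), chr15:81802506-81802625: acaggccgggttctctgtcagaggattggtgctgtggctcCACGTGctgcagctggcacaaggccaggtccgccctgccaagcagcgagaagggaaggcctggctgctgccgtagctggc
Tef (second start), chr15:81811236-81811355: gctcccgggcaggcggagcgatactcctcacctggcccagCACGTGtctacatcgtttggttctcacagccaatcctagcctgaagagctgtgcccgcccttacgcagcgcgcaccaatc
The E-box begins 166 bases before the start in the Per1 window and 127 and 138 bases before the starts in the Tef windows.

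Among cold-inducible and heat shock genes, 6 of 19 were higher and none was lower. The share was 31.6%, beside 17.7% higher and 31.7% called of all genes. With quantile normalization 2 were higher, and with the percentile over detected probes 3 were higher and 1 was lower. Rbm3, an RNA-binding protein induced by cooling, ran from 3.14 to 3.66 in control and from 3.67 to 4.47 in OVX+CUMS mice. The groups just failed to touch, both probes were called, and the difference was 0.64 ± 0.15 (adjusted p = 0.0074). Its slide step was 0.18 and its slide-adjusted difference 0.46 ± 0.33.

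**Figure D4:**
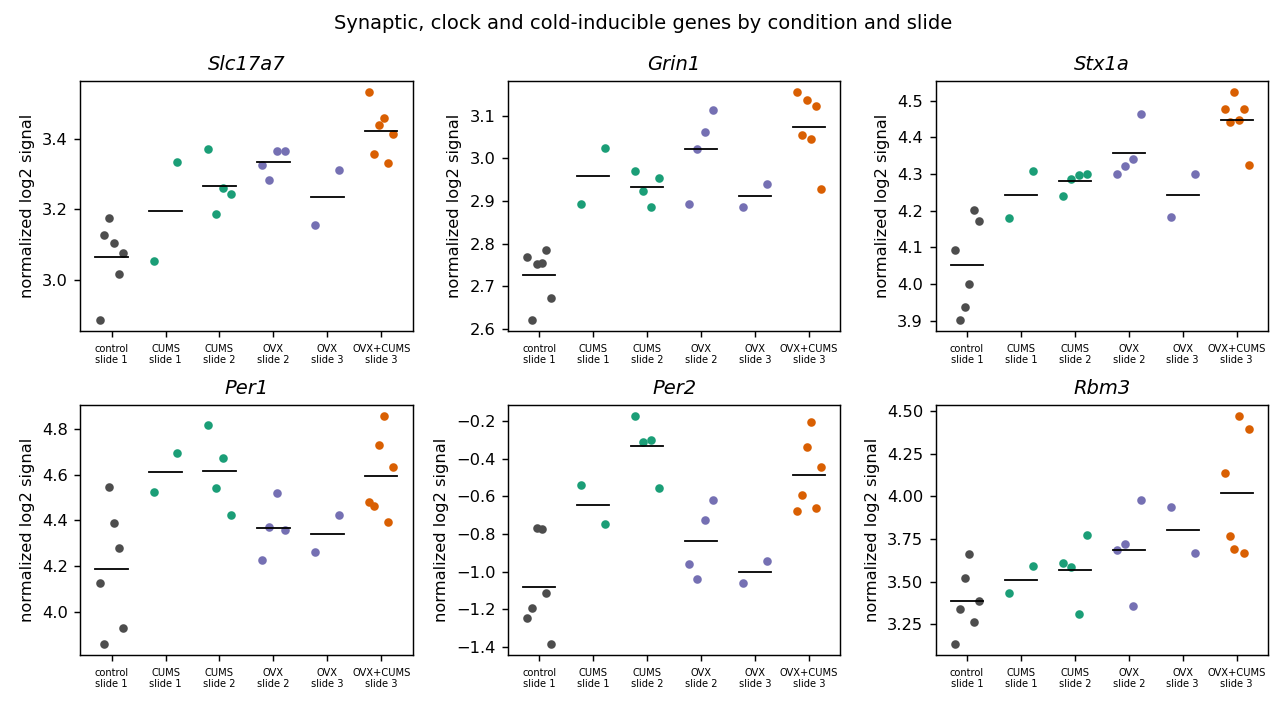
Normalized log2 signal (vertical axis) of 3 synaptic genes, the clock genes Per1 and Per2, and Rbm3 on the 24 mPFC arrays, by condition and slide; points are single mice and bars are means. In Slc17a7, Grin1 and Stx1a the OVX+CUMS mice lie above all control mice, and the CUMS arrays of slides 1 and 2 overlap.

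Genes of the glucocorticoid response did not move as 1 group. Of 24 tested glucocorticoid-induced genes, 3 were higher and 1 was lower (16.7% called, beside 31.7% of all genes). Their median difference was 0.14 beside a median slide step of -0.17. Hif3a, a hypoxia-inducible factor subunit induced by glucocorticoids, differed by 0.59 ± 0.15 with overlapping groups and a slide step of -0.91, so that its slide-adjusted difference was 1.504 ± 0.50. Nfkbia, the inhibitor of NF-kappaB, differed by 0.38 ± 0.11 with a slide step of -0.08. Fkbp5, the co-chaperone that dampens the glucocorticoid receptor, was lower: values ran from 1.37 to 1.84 in control and from 1.14 to 1.52 in OVX+CUMS mice, and the difference was -0.24 ± 0.08 (adjusted p = 0.0387). It remained called only when control mouse 3 or OVX+CUMS mouse 5 or 6 was the array left out. Its slide step was -0.48, and the slide-adjusted difference turned to 0.24 ± 0.23. Of 15 corticosteroid receptors and co-chaperones, 5 were higher and 1 was lower (40% called, beside 31.7% of all genes), and with quantile normalization 2 and 1. The receptor genes themselves were not called, with differences of 0.14 ± 0.06 for Nr3c1 and 0.12 ± 0.13 for Nr3c2. Ncor1, a corepressor of nuclear receptors, differed by 0.50 ± 0.05 without overlap, but only 1 of its 4 probes was called and the slide step was 0.34.

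Immediate early genes, transcribed within minutes of neuronal activity, had 1 of 29 higher and none lower (3.45% called, beside 31.7% of all genes). Fos ran from 0.19 to 1.38 in control and from 0.12 to 1.52 in OVX+CUMS mice, and Arc from 2.90 to 4.64 and from 3.57 to 4.86. Both overlapped widely, with differences of 0.25 ± 0.26 and 0.58 ± 0.30. Bdnf, a neurotrophin much studied in stress, differed by -0.01 ± 0.15.

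The genes of the ovarian hormone receptors were not called. Esr1 had a lowest value of -3.78, a median of -2.27 and a highest of -1.88 in control mice, and -3.28, -2.09 and -1.20 in OVX+CUMS mice, and these overlapped (difference 0.33 ± 0.37, adjusted p = 0.536). Esr2 differed by -0.12 ± 0.20 and Pgr by 0.16 ± 0.06, which was called only without control mouse 1 (0.19). Over the 21 tested estrogen receptors and targets, 3 were higher and 2 were lower (23.8% called, beside 31.7% of all genes). Their median difference was 0.11. Ctsd, a lysosomal protease and classical estrogen target, differed by 0.25 ± 0.05 with a slide step of 0.06. Igf1 and Greb1, estrogen-induced in other tissues, were lower by 0.44 ± 0.07 and 0.42 ± 0.09, with slide steps of -0.46 and -0.41; only 1 of 4 Igf1 probes and 1 of 2 Greb1 probes was called.

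Of 15 neurotrophin and receptor genes, 1 was higher and 2 were lower (20% called, beside 31.7% of all genes), with a median difference of -0.01. Of 16 genes of DNA methylation, 2 were higher and 1 was lower (18.8% called). Mbd3, a subunit of a repressor complex, differed by 0.42 ± 0.04 with both probes higher and a slide step of 0.33. Dnmt1, the maintenance methyltransferase, differed by 0.41 ± 0.06 with a slide step of 0.21. Tet3, which oxidises methylcytosine, differed by -0.43 ± 0.06, and its slide step was also -0.43.

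Many genes of protein synthesis were higher. Of 81 cytosolic ribosomal protein genes, 42 were higher and 4 were lower (56.8% called, beside 31.7% of all genes), and the median difference was 0.16. The median slide step was 0.14 and the median slide-adjusted difference 0.02. With quantile normalization 17 were higher and 6 were lower, and the list then lay 0.02 above the median of all genes in place of 0.10. Rpl29 and Rps15 differed by 0.37 ± 0.05 each, with slide steps of 0.24 and 0.05, and both probes of each were higher. Rps21, which fell by 0.59, had a slide step of -0.52, and Rpl4, with -0.24 ± 0.05, had one of -0.26. Ribosomal protein genes have many near-identical processed copies, so a probe may read more than 1 of them. The lists of mitochondrial ribosomal proteins (28 higher, 1 lower of 78), oxidative phosphorylation (21 and 2 of 79) and proteasome (15 and 1 of 46) had median differences of 0.12, 0.09 and 0.12, beside median slide steps of 0.12, 0.07 and 0.11. The shares called were 37.2%, 29.1% and 34.8%, beside 31.7% of all genes. Quantile normalization gave 15 higher and 7 lower, 8 and 14, and 7 and 2, so that the balance of the oxidative phosphorylation list turned. With the percentile over detected probes the counts were 17 and 4, 11 and 8, and 9 and 1. Mrpl12, Ndufa2 and Psmb3 differed by 0.28, 0.30 and 0.33. Psme3, a proteasome activator subunit, differed by -0.57 ± 0.07 with a slide step of -0.58.

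**Figure D5:**
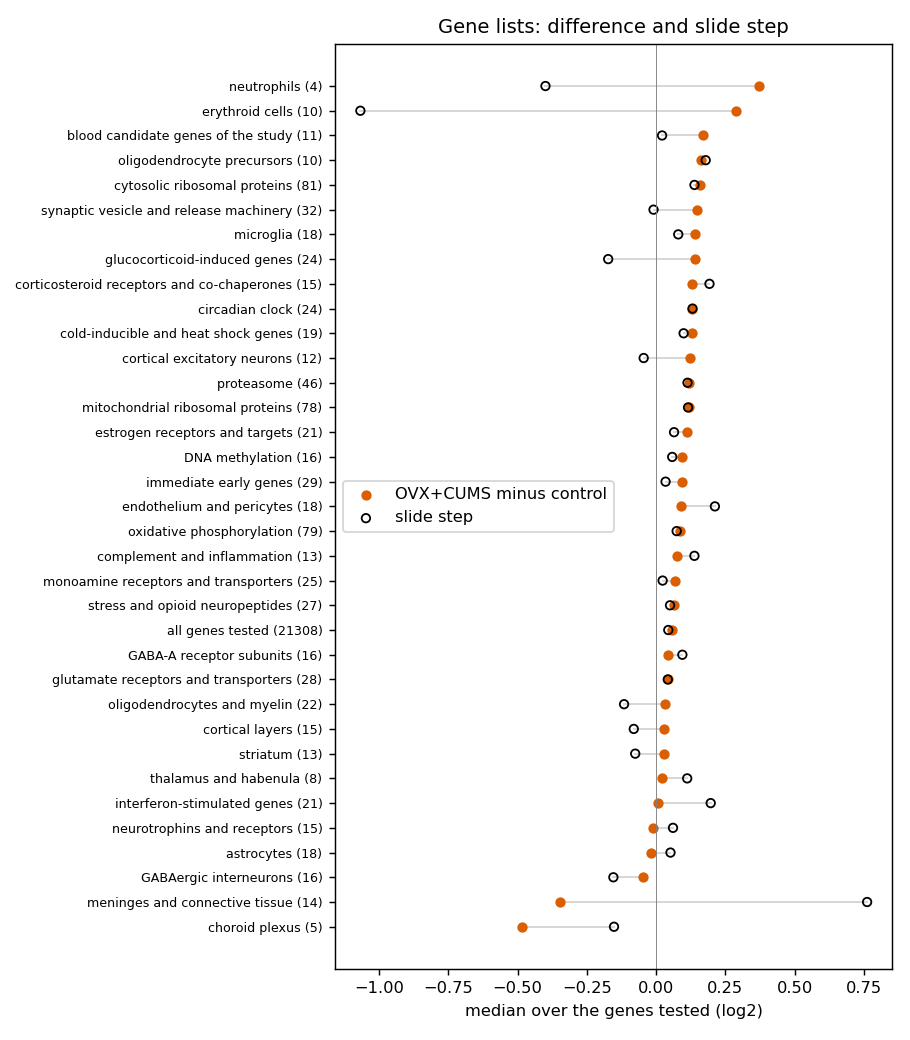
Median over the tested genes of each list (number in brackets) of the OVX+CUMS minus control difference (filled) and of the slide step (open), on the log2 scale of the horizontal axis. The 2 medians are close for ribosomal, proteasome and clock genes, and apart for synaptic vesicle genes, glucocorticoid-induced genes and the markers of blood and meninges.

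Markers of other cells were read with the same fit. Microglial genes had 8 of 18 higher and none lower (44.4%, beside 17.7% higher and 31.7% called of all genes). Their median difference was 0.14 and their median slide step 0.08. With quantile normalization or with the percentile over detected probes, 3 were higher. Tmem119, a marker of resident microglia, differed by 0.29 ± 0.06 with a slide step of 0.09. Csf1r, the receptor on which microglia depend, differed by 0.22 ± 0.06, although 1 of its 3 probes was lower, and Cx3cr1, the fractalkine receptor, differed by 0.24 ± 0.07 with a slide-adjusted difference of -0.09 ± 0.15. Astrocytes and myelin each had 1 gene higher and none lower, of 18 and 22 (5.56% and 4.55% called, beside 31.7% of all genes). Of 10 genes of oligodendrocyte precursors (20% called), Gpr17 was higher by 0.35 ± 0.05 and Vcan differed by -0.34 ± 0.08. Of 18 endothelial and pericyte genes (5.56% called), Kdr, the VEGF receptor, was lower by 0.51 ± 0.11 with a slide step of -0.37. Interferon-stimulated genes had 2 of 21 higher (9.52% called) and striatal markers 1 of 13 (7.69%), beside 31.7% of all genes. Monoamine receptors and transporters had 2 higher and 1 lower of 25 (12% called). Complement and inflammation genes had 2 higher and 1 lower of 13 (23.1% called). C3, the central complement factor, differed by -0.36 ± 0.08 with a slide step of -0.28.

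Choroid plexus genes were near background, with 5 of 12 tested and 3 of these 5 lower (60% called, beside 31.7% of all genes). Tmem72 and Clic6 had mean processed signals of 48.4 and 37.1 and differences of -1.01 ± 0.08 and -0.96 ± 0.18. The slide step was -0.79 for Tmem72 and 0.10 for Clic6. The summed processed signal of the list ran from 218 to 321 in control and from 152 to 208 in OVX+CUMS mice, without overlap. Meningeal and connective tissue genes varied within both groups: their summed signal ran from 23810 to 80380 in control and from 24800 to 118000 in OVX+CUMS mice, and none of 14 was called. Their median slide step was 0.76 and their median slide-adjusted difference -1.03. Erythroid genes had 2 of 10 higher (20%, beside 17.7% higher and 31.7% called of all genes), Bpgm (0.29 ± 0.05) and Fech (0.23 ± 0.05). Bpgm makes 2,3-bisphosphoglycerate and Fech inserts iron into heme. The erythroid list had a median slide step of -1.07 and a median slide-adjusted difference of 1.46. None of the 4 tested neutrophil genes was called. The neutrophil list had a median slide step of -0.40 and a median slide-adjusted difference of 0.87. S100a9, an alarmin of neutrophils, ran from -5.49 to -2.49 in control mice. In OVX+CUMS mice 5 values lay between -3.74 and -1.69 and mouse 5 stood at 2.10. Its difference was 1.94 ± 0.83 (adjusted p = 0.0967), and 1.16 without that mouse. The part of blood and meninges in the other results was not tested.

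Of the 14 genes that the study followed in blood, 11 were tested in mPFC, with 4 higher and 1 lower (45.5% called, beside 31.7% of all genes). The study chose them by cross-matching genes changed in the blood of depressed patients with genes changed in the blood of OVX+CUMS mice. The mouse side of that choice used blood of mice of the same groups, and the labels do not say whether they were the same animals. The count is therefore not taken as independent evidence of a direction. Rps2 differed by 0.37 ± 0.06, with a slide step of 0.35. Rpl23a differed by 0.27 ± 0.07, with a slide step of -0.06. Rab11fip4 differed by 0.20 ± 0.07 and was called after leaving out 1 array only where that array was OVX+CUMS mouse 6. Slc36a1, a lysosomal amino acid transporter, differed by -0.32 ± 0.08, its other probe was higher, and the slide step was -0.34. Cidec was well above background by 1 probe on no control and 3 OVX+CUMS arrays, and by its other probe on no array of either group. Styxl1 was so on 6 control and 3 OVX+CUMS arrays and Rnase1 on 5 control and 6 OVX+CUMS arrays. These 3 genes were therefore not tested.

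Probes of 1 gene did not always move together. As for Grin1 and Greb1, only 1 of 2 tested probes was called for Rorb, Cux2, Cckbr, Oprl1, Syn3 and Ctsd. The same held for Kdr, Vcan, C3, Tet3, Rpl23a and Rab11fip4. Of 890 genes with more than 1 called probe, 222 had called probes in both directions. A further 31 probes were well above background on all 6 control arrays and on no OVX+CUMS array, while none had the opposite pattern, and 23 of the 31 were also above background on both CUMS arrays of slide 1. Cox17, the copper chaperone of cytochrome oxidase, was among them by 1 probe, with a signal at least 3.4-fold lower in OVX+CUMS mice, the bound being set on each array by the lowest signal well above background. Cox17 was chosen after its values were seen.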

How the data were processed

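Each array carried Cy3-labelled RNA of 1 mouse, and the authors quantified spot intensity with background subtraction in Feature Extraction 10.7.3.1. The log2 values deposited by the authors were shifted to the 75th percentile of each array. After the median offset of each array was removed, at least 99.8% of them per array were within 0.001 of those computed here. Here the processed signal was taken to log2, outlier spots were left out, replicate spots were averaged, and each array was shifted by its 75th percentile over all probes. Groups were compared with limma 3.58.1 in R 4.3.3, two-sided, with Benjamini-Hochberg adjustment over 29437 probes, and single genes also by an exact two-sided permutation test, whose smallest p of 0.002165 is reached wherever groups do not overlap. The study's own methods, a one-way F test with Tukey's comparison, were an alternative. Gene symbols came from the RefSeq gene table for 26762 of 28390 probes with an accession, and otherwise from the array's annotation. The genes named were the 10 largest rises and falls without overlap, at most 3 called genes per list and direction, and a set of receptors and blood genes; some of them are not reported here. Comparison and lists were chosen with earlier results of these data known. The number of arrays, not a read count, limits precision. The 24 blood arrays were not used. The script for the fit was tested on simulated data.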

Additional observations from a re-analysis of the deposited data

Results flagged for a closer look

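In 172 sets of 6 mice (the named genes and 6 marker lists in each group), 21 (12.2%) had 1 array apart from the other 5 by Dixon's test, where chance gives about 5%. Values are normalized log2 signals, or, for a list, the mean over its genes after centring each gene on the 12 arrays. OVX+CUMS mouse 5 stood high for S100a9 (2.10, next -1.69) and for the neutrophil list (2.13, next 0.22), and low for Cckbr (3.88, next 4.04). OVX+CUMS mouse 6 stood high for the meningeal list (1.47, next -0.38), for Nfkbia (3.23, next 2.71), Rps15 (6.35, next 6.13) and Rpl23a (6.25, next 5.92), and low for Rab11fip4 (1.13, next 1.45). OVX+CUMS mouse 3 stood high for Olfr391 (-1.28, next -2.85) and Esr2 (2.17, next 1.43), and low for Ncor1 (2.22) and Fech (3.24). OVX+CUMS mouse 1 stood high for Pgr (0.59). Control mouse 5 stood high for Adra2b (0.028), Nfkbia (2.57) and Bdnf (2.61, next 2.03) and low for Slc17a6 (-0.73, next -0.20). Control mouse 6 stood high for Cd79a (0.0391, next -1.75). Control mouse 1 stood high for the myelin list (0.60, next -0.0024) and low for Olfr391 (-4.02), and control mouse 2 stood low for Rpl23a (5.54).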

How the results depend on the processing

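Called probes numbered 8886, with 5097 higher and 3789 lower. Leaving out 1 array gave 7632 (without control mouse 2) to 9677 (without OVX+CUMS mouse 3), with 4152 to 5601 higher and 3459 to 4076 lower. Normexp background correction, quantile normalization, the percentile over detected probes, the study's filter, no filter on dim probes, the authors' values, no moderation, all 24 arrays in the fit, and the F test with Tukey's comparison gave 7162 to 9791. The spike-in shift gave 98 higher and 13098 lower, and slide as a block gave 0 called, 0 higher and 0 lower, with 1730 at an unadjusted p under 0.05. As a block, the replicate number gave 8005. Deviations of mice with the same number correlated by 0.23, -0.14, -0.0531, 0.20, 0.11 and 0.26 for numbers 1 to 6, over 0.1 in 4 of 6, and the labels tie no number across groups, so the numbers were not taken as pairs. This block gave 1 gene of the GABA-A list higher, against 4. It gave 8 vesicle, 18 mitochondrial ribosomal, 13 oxidative phosphorylation and 10 proteasome genes higher, against 11, 28, 21 and 15.

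Of the 80 genes named, 71 were called. With slide as a block the direction turned for Adra2b (0.12), Cd79a (0.0537), Olfr103 (-0.51), Arl9 (-0.16), Otos (-0.11), Rorb (-0.0173), Oprl1 (-0.20), Gabrb2 (-0.0136), Fkbp5 (0.24), Nr3c1 (-0.0637), Nr3c2 (-0.20), Bdnf (0.0562), Esr1 (-0.18), Esr2 (0.36), Igf1 (0.0156), Tet3 (0.000557), Rpl4 (0.0163), Psme3 (0.0185), Cx3cr1 (-0.0879), Fech (-0.037) and Slc36a1 (0.026). With the spike-in shift it turned for Grik5 (-0.037), Gabrb2 (-0.0901), Nr3c1 (-0.16), Nr3c2 (-0.18), Fos (-0.0481), Pgr (-0.14), Ctsd (-0.0562), Ndufa2 (-0.00311), Mrpl12 (-0.025), Tmem119 (-0.0135), Csf1r (-0.0779), Cx3cr1 (-0.0634), Bpgm (-0.0148), Fech (-0.0731), Rpl23a (-0.0348) and Rab11fip4 (-0.10), each by the common shift. Normexp correction turned Nr3c1 (-0.0116). Without 1 array, Bdnf ranged from -0.0703 to 0.106. No filter on dim probes ended 7 calls, quantile normalization 5, the F test with Tukey's comparison 4, normexp correction and the percentile over detected probes 3 each, the replicate block 2 and all 24 arrays in the fit 1. The cause of these changes was not tested.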
